A study of Mus musculus with 6 samples.

Results

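Light chains of mouse antibodies come from 2 loci, kappa and lambda, and their transcripts were followed here in activated B cells with and without Sox2. The members are the rows of the raw count table whose symbol names a variable, joining or constant gene of either locus (Igkv, Igkj, Igkc, Iglv, Iglj or Iglc). The surrogate light chain gene Igll1 was kept out. These were 114 of the table's 37620 genes, 109 of them kappa and 5 lambda. In the GENCODE M21 annotation the kappa genes lie on chromosome 6 and the lambda genes on chromosome 16. Over the 6 libraries 5 members had no count, 6 had 1 to 9 counts and 103 had at least 10. Values below are of these 103, made up of Igkc, 94 Igkv, 3 Igkj, 2 Iglc and 3 Iglv genes. Iglc1 was not analysed here.

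The study sequenced total RNA of splenic B cells from C57Bl/6 mice aged 4 months. All cells were grown with anti-CD40 (1 µg/ml) and IL-4 (12.5 µg/ml), which drive proliferation and class switching, and were given a retrovirus after 24 and 48 h of culture. The virus was either the empty vector pMIR (3 libraries) or pMIR-Sox2 (3 libraries), the same vector carrying the transcription factor Sox2, and cells were sorted after 96 h for the mCherry of the vector. Sox2 thus came from a retroviral vector in cells that do not normally make it, and only infected, mCherry-positive cells were sequenced. Whether replicates came from different animals is not in the labels. The p-values thus cover only the variation among these libraries, which may be technical.

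A B cell makes 1 light chain by joining a variable segment to a joining segment upstream of a constant gene, and the choice is fixed before the cell leaves the bone marrow. In mice most B cells use kappa, whose many variable segments are grouped by sequence into numbered subgroups (Igkv1, Igkv2 and so on), and a minority use lambda, which has few segments. The light chain pairs with the heavy chain to form the B cell receptor, and its transcripts are among the most abundant of plasma cells. Variable gene counts in a B cell population thus report both which segments its cells joined and how strongly the locus is transcribed. In bulk RNA, fewer cells of a type and less RNA per cell cannot be told apart.

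Gene counts ran from 17153805 to 27692437 per library. Sox2 was read at 0.738, 0.334 and 1.78 CPM in the pMIR libraries (counts per 1000000 of the TMM-scaled library size; replicates in order 1 to 3 here and below) and at 989, 786 and 624 CPM in the pMIR-Sox2 libraries. In edgeR's quasi-likelihood test, at an adjusted p under 0.05, 20.0% of the 12898 genes tested other than Sox2 fell and 23.2% rose (2577 and 2990 genes), and with library totals in place of TMM 2059 fell and 3414 rose. For 56.5% of those genes the 3 libraries of one group all lay on one side of the other group's. Of 7 B cell markers all were expressed in both groups. Of 8 T cell markers only Lck and Cd5, which activated B cells can also express, were high enough to be tested, and Cd3e had at most 0.0319 CPM on average in a group. Among 7 myeloid markers S100a8 and S100a9 were at 0, and 3 of the 4 tested rose. These were Itgam (0.558 ± 0.0718 to 3.79 ± 1.02 CPM; SD, n = 3), Emr1 (18.6 ± 1.80 to 27.4 ± 2.61 CPM) and Lyz2 (0.0283 ± 0.0251 to 0.653 ± 0.121 CPM). Csf1r, the other myeloid marker tested, was lower on average and did not pass (0.645 ± 0.109 to 0.427 ± 0.136 CPM, adjusted p = 0.201). Cd14 averaged at most 0.0160 CPM in a group. Among 4 NK cell markers Ncr1 was at 0, and Gzma and Klrb1c averaged at most 0.479 and 0.175 CPM in a group. Klrd1, the only NK cell marker tested, rose to 4.87 ± 2.68 CPM. Lyz2 and Klrd1 reached the filter through pMIR-Sox2 alone. The part of such cells in the light chain values was not tested. Light chain genes took 0.221 to 0.279% of gene counts in pMIR and 0.122 to 0.161% in pMIR-Sox2.

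Kappa transcripts were about 2-fold lower in pMIR-Sox2. Of 84 kappa genes tested, 78 fell, 0 rose and 6 did not pass, and the fall was of similar size in Igkc, the single constant gene, and in most of the Igkv genes. Of 5 lambda genes tested, Iglc2, Iglv1 and Iglv2 fell. The constant gene Iglc3 did not fall with them, and its values were higher in pMIR-Sox2 on average. Over both loci 81 of 89 tested members fell, against 20.0% of all genes tested. The pMIR-Sox2 libraries all lay below the pMIR libraries in 83 of the 89, against 27.6% of all genes tested. The median log2 fold change of the 89 members was −1.13, and that of all genes tested was −0.02. The count of members that rose was 0 in edgeR, in DESeq2 and in limma-voom, and 0 members were higher at an unadjusted edgeR p below 0.05. With the replicate number as a block 1 member, Iglc3, rose. The share of all genes that fell was 20.3% in DESeq2, 20.2% in limma-voom, 16.0% with library totals, 20.6% with TMM computed without immunoglobulin genes, 11.1% with no filter and 25.7% with the block, and that of genes that rose was 23.4, 23.1, 26.5, 22.7, 15.3 and 27.0%. Leaving out pMIR replicate 1, 2 or 3 gave 13.5, 17.9 and 14.0% that fell and 17.9, 20.9 and 18.3% that rose. Leaving out pMIR-Sox2 replicate 1, 2 or 3 gave 14.3, 14.7 and 21.7% that fell and 18.8, 19.0 and 25.0% that rose.

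The count filter needed 0.474 CPM in 3 libraries, so a gene could pass through the pMIR group alone. Of the 89 members tested, 80 reached this level in all 6 libraries, and 72 of these fell and 0 rose. The 9 that were under it in some library all fell. Of these, 5 (Igkv1-132, Igkv4-90, Igkv5-37, Igkv8-16 and Igkv8-18) were under it in all 3 pMIR-Sox2 libraries and were tested only because they are higher in pMIR, so their falls are no support for the counts that include them. The 14 members with 10 or more counts that were not tested held 247 counts in the pMIR group and 111 in the pMIR-Sox2 group, whose gene counts totalled 70787127 and 55976674.

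**Figure D1:**
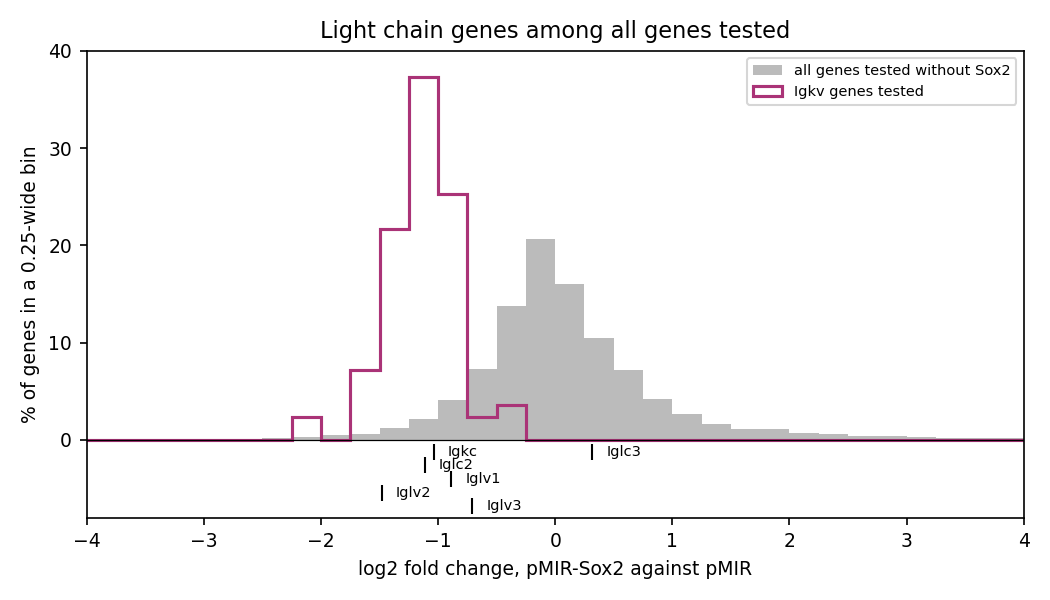
Percent of genes in each 0.25-wide bin of the log2 fold change of pMIR-Sox2 against pMIR, for all 12898 genes tested without Sox2 (grey) and the 83 Igkv genes tested (outline), with ticks for Igkc and the 5 lambda genes. The axis runs from −4 to 4 and leaves out 163 genes. The Igkv genes lie left of 0, around Igkc at −1.04, while Iglc3 lies at 0.32.

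Igkc encodes the constant region shared by every kappa chain. It was read at 957, 1215 and 1060 CPM in pMIR and at 443, 513 and 617 CPM in pMIR-Sox2. The groups did not overlap, and the highest pMIR-Sox2 library, replicate 3, was also the one with the least Sox2. The group means were 1077 ± 130 and 524 ± 87.2 CPM (SD, n = 3 each), which gave a log2 fold change of −1.04 ± 0.15 (SE; adjusted p = 0.000679). Over the alternatives run it stayed between −1.16 and −0.93.

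The 94 Igkv genes together followed Igkc. Their summed level was 871, 1096 and 959 CPM in pMIR and 404, 429 and 553 CPM in pMIR-Sox2. Again the groups did not overlap and replicate 2 was highest in pMIR and replicate 3 in pMIR-Sox2. For every 100 Igkc counts there were 91.1, 90.3 and 90.5 Igkv counts in pMIR and 91.2, 83.7 and 89.7 in pMIR-Sox2. The ratio of variable to constant kappa counts therefore overlapped between the groups.

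The joining genes are short, and few reads were assigned to them. Igkj1 had 7, 2 and 6 counts in pMIR and 1, 1 and 1 in pMIR-Sox2. Igkj2 had 9, 7 and 5 counts against 3, 1 and 0, and Igkj4 had 3, 5 and 2 against 0, 0 and 2. None of the 3 reached the filter, so no change was tested.

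**Figure D2:**
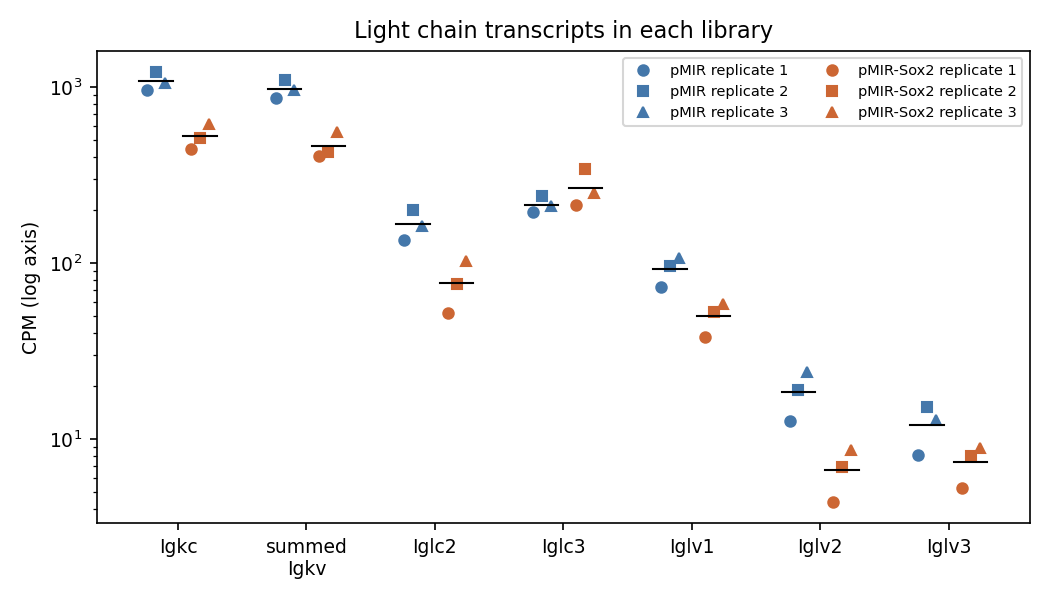
CPM (log axis) of Igkc, of the summed Igkv genes and of each lambda gene in the 6 libraries. Points are libraries and bars are group means. Igkc, summed Igkv, Iglc2, Iglv1 and Iglv2 are lower in each pMIR-Sox2 library than in each pMIR library, while Iglc3 and Iglv3 overlap.

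The lambda genes divided. Iglv1 and Iglv2 are variable genes, and Iglc2 is the constant gene that Iglv2 usually joins. Iglc2 was read at 136, 200 and 163 CPM in pMIR and at 51.8, 76.3 and 102 CPM in pMIR-Sox2, with no overlap. Its log2 fold change was −1.12 ± 0.23 (adjusted p = 0.00501). Iglv1 was at 72.9, 96.7 and 107 CPM against 38.0, 52.8 and 58.7 CPM (−0.89 ± 0.18, adjusted p = 0.00467). Iglv2 was at 12.7, 19.1 and 23.9 CPM against 4.41, 6.92 and 8.69 CPM (−1.48 ± 0.29, adjusted p = 0.00347). In each of these genes replicate 1 was the lowest library of its group. Iglv3, the gene also called Vx, was at 8.11, 15.3 and 12.9 CPM against 5.28, 8.06 and 8.87 CPM, and its groups overlapped. Its log2 fold change of −0.71 ± 0.27 missed the threshold (adjusted p = 0.0562). It passed with the replicate block (0.00109) and by DESeq2 (0.0301), and over all alternatives its adjusted p ran from 0.00109 to 0.194.

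Iglc3 encodes another lambda constant region. It was read at 195, 240 and 210 CPM in pMIR and at 213, 341 and 249 CPM in pMIR-Sox2. The groups overlapped, and pMIR-Sox2 replicate 2 was the highest. The log2 fold change was 0.32 ± 0.17 (adjusted p = 0.160). With the replicate block it was 0.29 (adjusted p = 0.0242), and without pMIR-Sox2 replicate 2 it was 0.11 (adjusted p = 0.552). The difference between Iglc3 and the kappa variable genes was tested by setting each library's size to its summed Igkv counts, a scaling chosen after these values were seen. On that scale the log2 fold change of Iglc3 was 1.42 (edgeR unadjusted p = 1.35e-10, adjusted p = 7.12e-10). The same scaling called 84.9% of all genes, 83.4% upward and 1.43% downward, so here the adjustment over all genes asks little more than the unadjusted p. Igkc (0.04, unadjusted p = 0.829), Iglc2 (−0.05, 0.831), Iglv1 (0.19, 0.394), Iglv2 (−0.41, 0.123) and Iglv3 (0.39, 0.159) did not pass on it.

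Iglc3 and Iglc2 are near copies, and their differing values rest on reads that tell them apart. The opening of both constant exons is shown from the GENCODE M21 transcripts (GRCm38), 5′ to 3′, with the bases of Iglc3 that differ from Iglc2 in capitals.
Iglc2: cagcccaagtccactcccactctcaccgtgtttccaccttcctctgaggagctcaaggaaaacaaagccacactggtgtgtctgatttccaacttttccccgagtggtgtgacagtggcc
Iglc3: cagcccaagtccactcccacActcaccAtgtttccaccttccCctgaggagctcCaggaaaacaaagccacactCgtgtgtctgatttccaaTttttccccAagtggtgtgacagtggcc
They differ at 7 of these 120 bases and are 96.5% identical over 317 aligned bases. Of the 50-base stretches of the transcript, 77.7% occur in no other annotated gene for Iglc3 and 92.3% for Iglc2 (the sources used here give no read length). These are shares of each gene's longest transcript, 452 bases for Iglc3 and 606 for Iglc2, searched on both strands. They reach beyond the 317 aligned bases, so they do not measure how well reads tell the exons apart. The identifier of Iglc3 in the count table is not in GENCODE M21, which gives the symbol another identifier, so what the counted gene model spans is not known. In M21 the antisense gene 2010309G21Rik overlaps Iglc3 and also Iglv1. The strand setting of the counting was not given, so reads of either strand cannot be told apart.

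The lambda share of light chain counts was 18.9, 19.8 and 20.3% in pMIR and 26.9, 34.0 and 26.8% in pMIR-Sox2, with no overlap. The means were 19.7 ± 0.752% and 29.2 ± 4.12% (SD, n = 3). Iglc3 alone made up 42.9 ± 2.74% of lambda counts in pMIR and 65.6 ± 6.41% in pMIR-Sox2. Without Iglc3 the lambda share was 11.2, 12.5 and 13.2% in pMIR and 10.5, 13.3 and 13.2% in pMIR-Sox2, and the groups overlapped. Over the variable genes only, the lambda share differed by 0.973 percentage points between the group means, against 9.57 points over all light chain genes and 13.4 points over the constant genes. The summed level of kappa genes was 2053 ± 243 CPM in pMIR and 987 ± 166 CPM in pMIR-Sox2, a ratio of 0.480. That of lambda genes without Iglc3 was 289 ± 52.7 and 141 ± 39.5 CPM, a ratio of 0.487. With Iglc3 the lambda sum was 504 ± 73.5 and 409 ± 88.0 CPM, and the groups overlapped, though within each same-numbered pair it was lower in pMIR-Sox2 (425 and 313, 571 and 485, 516 and 428 CPM). These sums over members carry no test.

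**Figure D3:**
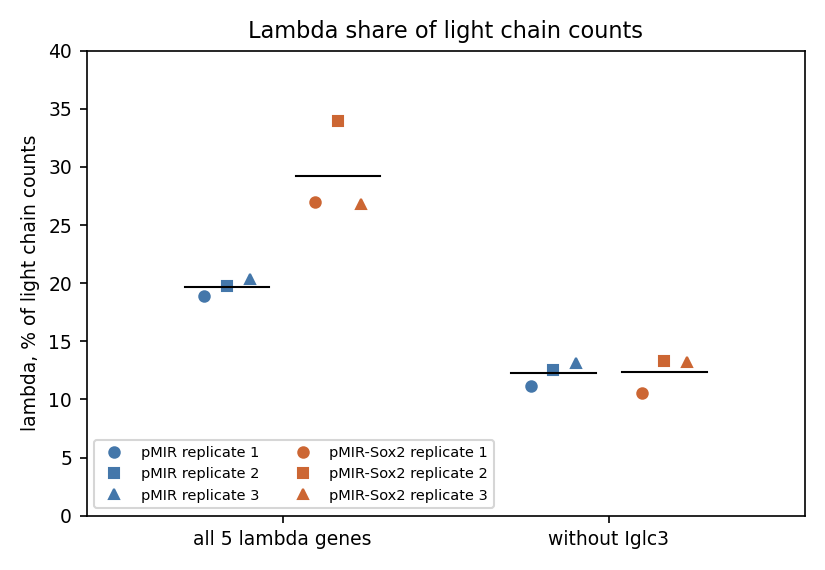
Lambda percent of light chain counts in the 6 libraries, over all 5 lambda genes and without Iglc3. Points are libraries and bars are group means. With Iglc3 the pMIR-Sox2 libraries lie above 26% and the pMIR libraries near 20%, and without it both groups lie between 10.5 and 13.3%.

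Among the Igkv genes the fall was broad. Of 83 tested, 77 fell and all 83 log2 fold changes were negative, from −2.17 to −0.31. The middle range ran from −1.30 to −0.96 (quartiles), and 57 of the 77 fell by over 2-fold. Of the 12898 genes tested without Sox2, 2577 (20.0%) fell, 658 of them by over 2-fold, and 6612 had a negative log2 fold change. The 77 and the 57 include the 5 genes that reached the filter through pMIR alone. Per kilobase of their GENCODE M21 transcripts, the genes of highest level in pMIR were Igkv10-96 at 163, Igkv1-117 at 135, Igkv6-15 at 113, Igkv1-135 at 109, Igkv1-110 at 108 and Igkv14-111 at 102 CPM per kb. Igkv10-96 took 6.02 ± 0.159% of Igkv counts in pMIR and 6.20 ± 0.297% in pMIR-Sox2, and ranked first in both groups. The order of the genes was largely shared, with a Spearman rho of 0.99 between the group mean shares of the 94 genes. That value is across genes of the same libraries, which are not independent replicates.

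The 8 Igkv genes of highest mean CPM all fell. Igkv10-96 was at 53.8, 66.1 and 56.2 CPM in pMIR and at 25.7, 25.2 and 35.4 CPM in pMIR-Sox2 (−1.03 ± 0.15, adjusted p = 0.000751). Igkv1-117 was at 47.5, 60.2 and 56.3 against 18.0, 20.5 and 26.4 CPM (−1.34 ± 0.16, adjusted p = 0.000247). Igkv6-15 was at 36.2, 44.4 and 37.2 against 14.7, 16.4 and 18.8 CPM (−1.24 ± 0.13, adjusted p = 0.000154). In these 3 genes the groups were well apart, and pMIR replicate 2 and pMIR-Sox2 replicate 3 were the highest of their groups. Igkv1-110 (−1.11) and Igkv1-135 (−1.12) fell by as much as Igkc. Igkv6-32 (−0.81) and Igkv19-93 (−0.76) fell by less, though neither departed from the summed Igkv level on the scale of Igkv counts (unadjusted p = 0.248 and 0.175). The M21 record matched to Igkv19-93 is classed as a pseudogene, but that record may be of another gene. Of the 8 Igkv members whose matched record has this class, Igkv19-93 was the only one high enough to be tested.

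Igkv14-111 fell least among the Igkv genes that passed. It was read at 34.5, 38.7 and 39.3 CPM in pMIR and at 24.4, 29.7 and 30.4 CPM in pMIR-Sox2, without overlap, and its log2 fold change was −0.41 ± 0.12 (adjusted p = 0.0206). The call was lost when pMIR replicate 2 (adjusted p = 0.0538), pMIR replicate 3 (0.0770) or pMIR-Sox2 replicate 1 (0.0723) was left out. Its share of Igkv counts was 3.86 ± 0.296% in pMIR and 6.15 ± 0.720% in pMIR-Sox2, which moved it from the 6th to the 2nd highest share. Scaled to Igkv counts its log2 fold change was 0.67 (unadjusted p = 0.00321, adjusted p = 0.00436). The other members of its subgroup fell by more. Igkv14-100 changed by −1.17 ± 0.22, Igkv14-126 by −0.96 ± 0.24 and Igkv14-130 by −1.66 ± 0.39. A stretch of 120 bases of the 4 variable genes, the one in which Igkv14-111 and Igkv14-100 differ most, is shown from the GENCODE M21 transcripts, 5′ to 3′, to let these relatives be compared, with bases that differ from Igkv14-111 in capitals.
Igkv14-111: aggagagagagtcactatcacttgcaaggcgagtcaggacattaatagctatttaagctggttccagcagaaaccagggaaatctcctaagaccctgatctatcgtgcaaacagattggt
Igkv14-100: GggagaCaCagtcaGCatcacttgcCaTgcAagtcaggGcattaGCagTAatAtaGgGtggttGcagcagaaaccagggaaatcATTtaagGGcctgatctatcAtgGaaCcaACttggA
Igkv14-126: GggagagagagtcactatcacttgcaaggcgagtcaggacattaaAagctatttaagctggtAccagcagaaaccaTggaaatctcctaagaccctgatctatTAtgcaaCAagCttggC
Igkv14-130: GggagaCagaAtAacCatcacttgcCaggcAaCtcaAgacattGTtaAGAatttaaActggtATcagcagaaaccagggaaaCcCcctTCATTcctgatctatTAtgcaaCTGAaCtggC
The closest by sequence of the other Igkv14 genes shown, Igkv14-126, differs at 10 of the 120 bases and is 91.6% identical over 358 aligned bases. Every 50-base stretch of each of these 4 transcripts occurs in no other annotated gene.

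The other Igkv genes at the upper end of those that passed were Igkv3-2 (−0.75 ± 0.14, adjusted p = 0.00277) and Igkv4-57 (−0.78 ± 0.18, adjusted p = 0.00674). At the lower end stood Igkv8-18 (−2.17 ± 0.31, adjusted p = 0.000625), Igkv8-16 (−2.13 ± 0.45), Igkv4-90 (−1.69 ± 0.33), Igkv8-30 (−1.67 ± 0.19) and Igkv14-130. Most of these are low genes, and Igkv8-18, Igkv8-16 and Igkv4-90 are among the 5 that reached the filter through pMIR alone, so their place at this end is a description. Igkv8-18 had 38, 33 and 27 counts in pMIR and 8, 5 and 5 in pMIR-Sox2, and Igkv8-16 had 14, 18 and 11 against 3, 2 and 3. Igkv8-30 was better covered, at 11.7, 16.4 and 15.0 CPM in pMIR and 4.09, 4.06 and 5.45 CPM in pMIR-Sox2. Of the Igkv8-16 transcript only 25.5% of the 50-base stretches are unique to it, so its count is uncertain.

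Of the 6 Igkv genes that did not pass, named here after their values were seen, Igkv4-53 changed least (−0.31 ± 0.22, adjusted p = 0.275). It was at 5.05, 7.63 and 7.15 CPM in pMIR and 4.64, 4.87 and 6.43 CPM in pMIR-Sox2, with overlap. Only 60.4% of its transcript's 50-base stretches are unique to it. The other 5 were Igkv12-89 (−0.49), Igkv12-98 (−0.58), Igkv11-125 (−0.72), Igkv4-70 (−0.82, adjusted p = 0.0534, and 0.00864 with the replicate block) and Igkv1-99 (−0.999, adjusted p = 0.0581, and 0.0379 with the block). Scaled to Igkv counts, 5 members passed at an adjusted p under 0.05: Iglc3, Igkv14-111 and Igkv4-53 (0.77, unadjusted p = 0.0100) upward, and Igkv8-18 (−1.09, unadjusted p = 0.0248) and Igkv8-30 (−0.58, unadjusted p = 0.0404) downward. That scaling called 84.9% of all genes, so the adjusted p asks little more than the unadjusted p. Among 89 members a few would pass at such a level without any difference. Igkv8-18 also reached the filter through pMIR alone, so its place here is a description.

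**Figure D4:**
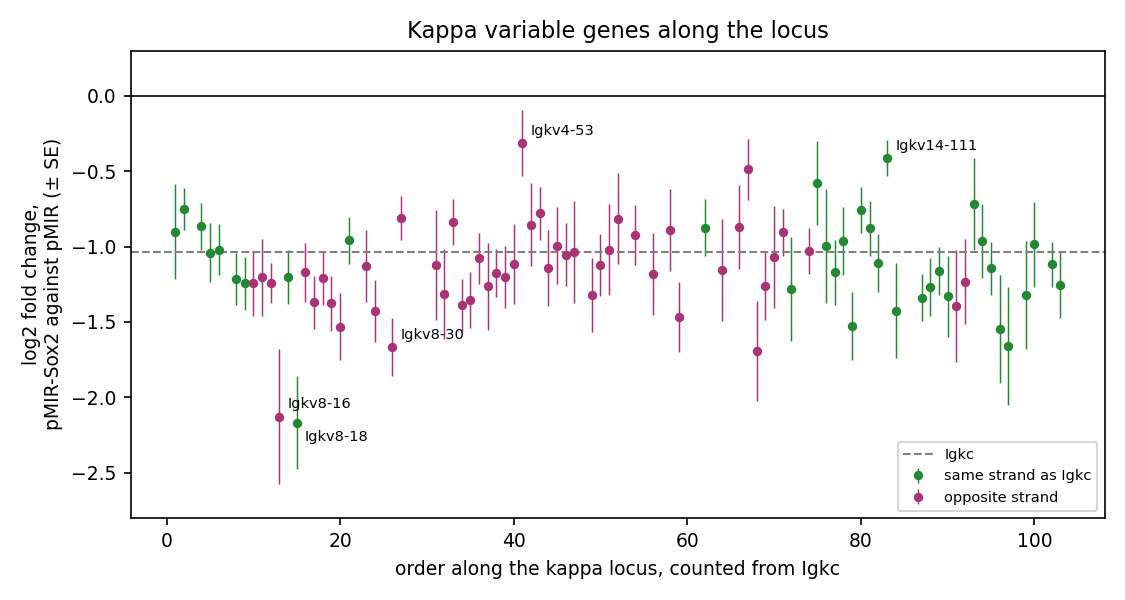
Log2 fold change of pMIR-Sox2 against pMIR (± SE) for the 83 Igkv genes tested, ordered along the kappa locus from Igkc outwards and coloured by strand relative to Igkc, with Igkc as the dashed line. All points lie below 0 along the whole locus. The place and strand of Igkv19-93 may be those of another gene. Igkv14-111 and Igkv4-53 are nearest to 0, and Igkv8-18 and Igkv8-16 are lowest.

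The fall ran along the whole locus. Segments on the strand opposite to Igkc join by inversion and those on the same strand by deletion. Of 35 tested Igkv genes on the same strand 32 fell (median −1.12), and of 48 on the opposite strand 45 fell (median −1.16). Among all genes tested 20.0% fell. In the part of the locus nearer to Igkc 40 of 41 fell (median −1.18), and in the more distant part 37 of 42 fell (median −1.12). The counts by strand and by part include the 5 genes that reached the filter through pMIR alone, whose falls are no support for them. Across the 83 genes the Spearman rho of the log2 fold change was 0.03 with the order along the locus, 0.17 with the mean level and 0.00 with the share of unique 50-base stretches. These describe genes of the same 6 libraries. The place, strand and sequence used for Igkv19-93 may be those of another gene. The 19 genes whose 50-base stretches were all unique had a median of −1.07, and 16 of them fell. Alignments that were not unique took 25.7 to 26.0% of reads in pMIR and 23.1 to 26.5% in pMIR-Sox2.

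By subgroup, the summed level was lower in each pMIR-Sox2 library than in each pMIR library in 17 of the 19 Igkv subgroups. The exceptions were Igkv11 and Igkv7, each with 1 gene and under 3 CPM. In 15 subgroups every tested member fell or, in Igkv7 and Igkv18, there was none to test. Of all genes tested 20.0% fell. Igkv1, the largest by counts, was at 154 ± 21.3 CPM in pMIR and 67.8 ± 13.7 CPM in pMIR-Sox2, and 7 of its 8 tested genes fell (median −1.11). Igkv6 was at 143 ± 15.8 and 64.7 ± 9.98 CPM, and 8 of 8 fell (median −1.22). Igkv4, the subgroup with most genes, was at 91.9 ± 11.7 and 47.0 ± 9.29 CPM, and 18 of 20 fell (median −1.06). Igkv3 was at 88.4 ± 8.92 and 45.4 ± 6.90 CPM, and 7 of 7 fell (median −1.02).

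The subgroups at the ends of the range were Igkv8 and Igkv14 among those with more than 1 gene. Igkv8 was at 71.4, 97.1 and 81.9 CPM in pMIR and 27.5, 29.7 and 38.1 CPM in pMIR-Sox2, a log2 ratio of means of −1.39, and 8 of 8 genes fell, against 20.0% of all genes tested. Igkv8-18 and Igkv8-16, the lowest of them, reached the filter through pMIR alone, and next was Igkv8-30 at −1.67. As a share of Igkv counts it was 8.19, 8.86 and 8.53% in pMIR and 6.81, 6.92 and 6.89% in pMIR-Sox2, without overlap. Igkv14 was at 48.8, 59.1 and 55.8 CPM in pMIR and 30.3, 37.6 and 39.8 CPM in pMIR-Sox2, a log2 ratio of −0.60. Its share was 5.60, 5.39 and 5.82% against 7.49, 8.77 and 7.19%, without overlap, and Igkv14-111 held most of it. Among single-gene subgroups, Igkv16 (Igkv16-104, −1.53 ± 0.23) had a lower share in pMIR-Sox2, and Igkv19 (Igkv19-93) and the barely read Igkv7 a higher one, without overlap. The share of Igkv1 was lower, from 15.7 ± 0.528 to 14.6 ± 0.468%, without overlap. Shares were a description and were not tested.

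**Figure D5:**
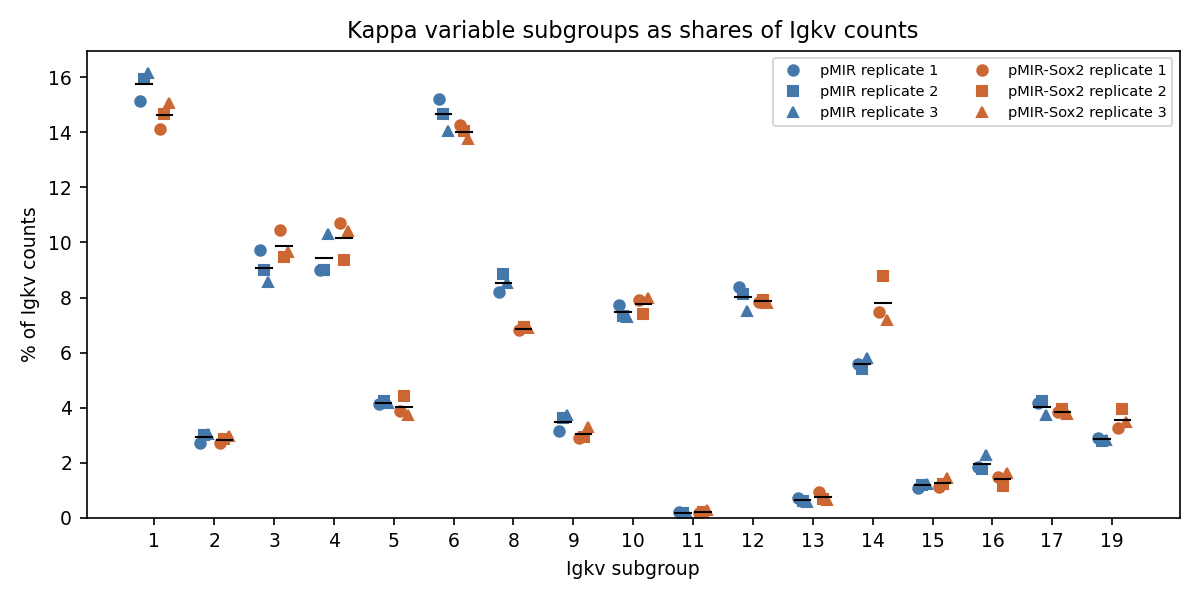
Percent of Igkv counts taken by each Igkv subgroup with a tested gene, in the 6 libraries. Points are libraries and bars are group means. Most subgroups keep a similar share in both groups, Igkv8 is lower in pMIR-Sox2 and Igkv14 is higher.

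The heavy chain partners also fell. Of 9 tested genes for partners of the light chain in the receptor or the antibody, 8 fell and 0 rose in edgeR (0 unadjusted, and 0 by DESeq2 or limma-voom), with a median of −2.47, against 20.0% that fell and 23.2% that rose among all genes tested. Of the 8, Ighg2c was at 0.0919, 0.162 and 0.348 CPM in pMIR-Sox2. It reached the filter of 0.474 CPM through pMIR alone, so its fall is no support for this count. Ighm, the IgM heavy chain, fell by less than Igkc, from 4331 ± 631 to 3211 ± 353 CPM (−0.43 ± 0.15, adjusted p = 0.0394), and the difference between them was not tested. Ighg1, the IgG1 heavy chain, fell from 841 ± 91.7 to 152 ± 34.0 CPM (−2.47 ± 0.17, adjusted p = 2.36e-05). Cd79b, a signalling subunit of the receptor, fell from 790 ± 109 to 347 ± 67.7 CPM (−1.19 ± 0.17), while its partner Cd79a was at 652 ± 105 and 764 ± 112 CPM (0.23 ± 0.15, adjusted p = 0.255). Igj, which joins the subunits of secreted IgM, was at 9.22, 48.6 and 15.7 CPM in pMIR and 1.10, 1.08 and 1.39 CPM in pMIR-Sox2, and was highest in pMIR replicate 2, the library with the most kappa and Iglc2 transcripts. Of 7 tested plasma cell markers 4 fell and 1 rose (20.0 and 23.2% of all genes tested), and their summed level was 923 to 1112 CPM in pMIR and 499 to 582 CPM in pMIR-Sox2. Among them Derl3 fell (−1.98 ± 0.20) and Prdm1 rose (1.19 ± 0.24), while Sdc1 was at 8.33 ± 1.36 and 6.58 ± 1.02 CPM. The part of plasma cell differentiation in the light chain values was not tested.

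Surrogate light chain genes, which stand in for the light chain in B cell precursors before kappa or lambda is joined, had higher values in pMIR-Sox2. Igll1, which encodes lambda5, had 2, 0 and 2 counts in pMIR and 110, 41 and 49 in pMIR-Sox2. Its level was 3.37 ± 1.49 CPM in pMIR-Sox2. It reached the filter through pMIR-Sox2 alone, so its call is given as a description. Vpreb1 had 1, 1 and 3 counts against 26, 16 and 5, and Vpreb2 had 1, 0 and 0 against 18, 23 and 4. Both were too low to be tested, and their libraries did not overlap. Vpreb3 was at 43.8 ± 6.87 and 60.4 ± 14.5 CPM (0.46 ± 0.18, adjusted p = 0.0618, and 0.00291 with the replicate block). The recombinase genes Rag1 and Rag2 had group means of at most 0.0707 CPM. Of the 9 tested genes of the list of surrogate light chain and recombination genes, 2 rose (Igll1 and Lig4, the ligase of end joining, 1.23 ± 0.17), 0 fell in edgeR (0 unadjusted, and 0 by DESeq2 or limma-voom) and 7 did not pass, with a median of 0.13. Of all genes tested 23.2% rose, a share close to that of the list.

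Of 24 tested transcription factors known to act at light chain loci, 12 fell, 5 rose and 7 did not pass (median −0.30). Among all genes tested 20.0% fell and 23.2% rose, so the number that rose is near the background. Tcf12 (2.89 ± 0.18) and Tcf4 (1.29 ± 0.13), E proteins that bind immunoglobulin enhancers, rose. Pou2f2, which encodes the octamer-binding factor OCT2, fell from 70.4 ± 15.7 to 26.9 ± 3.60 CPM (−1.39 ± 0.17, adjusted p = 0.000310), and Stat5a fell from 172 ± 34.8 to 69.3 ± 7.46 CPM (−1.31 ± 0.16). Of 19 tested genes for folding and assembly of antibody chains in the endoplasmic reticulum, 13 fell, 1 rose and 5 did not pass (median −0.57), against the same 20.0 and 23.2% of all genes. Calr, the chaperone calreticulin, fell from 1746 ± 118 to 886 ± 165 CPM (−0.98 ± 0.15), and Sdf2l1 (−1.10 ± 0.13), Creld2 (−0.81 ± 0.12) and Hyou1 (−0.88 ± 0.13) fell too. Whether any of these changes bears on the light chain genes was not tested.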

How the data were processed

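The authors deposited raw read counts per Ensembl gene for 6 libraries of total RNA. The submitters' processing notes list HTSeq 0.6.1p1, SAMtools 0.1.19, Trimmomatic 0.32, Bowtie2 2.2.2 and TopHat2 2.0.11, and name mm9 as the genome. Neither the strand setting of the counting nor its gene models is stated there. Left out of library sizes and tests were 5 summary rows that name no gene, and genes took 51.9 to 53.2% of each library's total.

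The deposited counts went into edgeR 4.0.16 (R 4.3.3), with filterByExpr by group, TMM scaling, the robust quasi-likelihood test for pMIR-Sox2 over pMIR, and Benjamini-Hochberg adjustment over all 12899 genes tested, called at 0.05. Every adjusted p with no tool beside it comes from here. SE is the size of the log2 fold change over the square root of F. CPM are counts per 1000000 of TMM effective library size. Sums used members with 10 or more counts over the 6 libraries and carry no test. On simulated counts of this comparison (12899 genes), the test found 19 of 50 genes changed 1.5-fold and 44 of 50 changed 2-fold, and made 18 false calls. The simulation gave every gene the same dispersion, paired no libraries and changed far fewer genes than were called here. Its numbers need not hold for the light chain genes. The depth of 17153805 to 27692437 gene counts limits the low Igkv and the Igkj genes most.

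Groups and replicate numbers come from the titles. The descriptions give same-numbered libraries of the 2 groups a shared number (8, 9 or 12). Deviations from the group means correlated at 0.27, 0.44 and 0.27 within same-numbered pairs over all genes tested, and at −0.29 to 0.06 between different numbers. Deviations within a group sum to 0, so these 2 sets of values are not independent. The numbers were taken to pair the libraries, though the labels do not say what they mark. The main test used no replicate block, and the block was run as an alternative. The alternatives were a replicate block, DESeq2 1.42.0, limma-voom (limma 3.58.1), library totals only, TMM without immunoglobulin genes, no filter, each library left out, and for sums other count minimums and gene kinds. The scaling to Igkv counts was added after seeing the data.

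GENCODE M21 (GRCm38, a different build from mm9) gave gene class, order, strand, transcript length and sequence, with no coordinates. It matched 69 members by identifier and the other 45 by symbol. The records matched by identifier to Igkv19-93, Igkv4-56 and Igkv12-47 lie away from genes of neighbouring number. Their class, order, strand, length and sequence may thus be those of other genes. Named genes were Igkc, all lambda and Igkj genes with 10 or more counts, the 8 Igkv genes of highest mean CPM, the 5 lowest and 5 highest fold changes among Igkv genes that passed without overlap, and up to 4 genes of each list. Members and lists were chosen with earlier results of these data known.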

Additional observations from a re-analysis of the deposited data

How the results depend on the processing

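The number of light chain genes that fell was 81 in edgeR, 78 by DESeq2, 81 by limma-voom, 80 with library totals only, 81 with TMM computed without immunoglobulin genes, 83 with no filter, 84 with the replicate block and 69 to 85 with 1 library left out. The number of light chain genes that rose was 0 under each of these settings except the replicate block, where it was 1 (1 lambda gene, Iglc3). The log2 ratio of summed kappa CPM, from means of log2 values, was −1.06 and lay between −1.19 and −0.95 with 1 library left out. That of summed lambda CPM was −0.32, between −0.45 and −0.13 with 1 library left out, and −0.95 over variable genes only. The rise in the lambda share was 9.57 points, 7.19 to 10.8 with 1 library left out, 13.4 over constant genes only and 0.973 over variable genes only. The variable genes leave out Iglc3, and the other values include it; the cause of the other shifts was not tested. The log2 ratio of each of the 19 Igkv subgroups moved by less than its spread between replicates under each of 188 values recomputed. Of 21 named genes tested, Iglc3, Iglv3 and Igkv14-111 crossed the threshold under some alternative. Iglv3 also passed with no filter (adjusted p = 0.0248), with pMIR replicate 1 left out (0.0192) and with pMIR-Sox2 replicate 3 left out (0.0407). None of the 21 changed direction. The replicate block changed the calls of Iglc3 and Iglv3 among these 21, and also those of Igkv4-70 and Igkv1-99, which were named after their values were seen. Depth limits the Igkj genes and the lowest Igkv genes, whose pMIR-Sox2 libraries hold a few counts each.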

Other observations

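Within a group, Igkv genes had a somewhat higher median spread between libraries than all genes. The median coefficient of variation of the 83 tested Igkv genes was 13.4% in pMIR and 20.0% in pMIR-Sox2, and over all 12899 genes tested it was 9.95% and 13.4%. This difference was not tested. Of the 94 Igkv genes, 15 had a lower and 12 a higher share of Igkv counts in each pMIR-Sox2 library than in each pMIR library. In CPM, a measure unlike shares, the groups did not overlap for 56.5% of all genes tested. With so few libraries some genes separate without any difference, so these counts are a description. The 8 genes of highest share in pMIR took 34.3% of Igkv counts there and 35.8% in pMIR-Sox2.

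Over the 89 light chain genes tested, the deviations from the group means correlated at 0.35, 0.19 and 0.24 between libraries of the same number, and at −0.35 to 0.11 between libraries of different numbers.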
